A study of Chlamydomonas reinhardtii with 2 samples.

Results

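In messenger RNA of the green alga Chlamydomonas reinhardtii, 241 pairs of facing read edges enclosed a gap that still carried reads, out of 1654 such pairs in all. A right edge was a base at which trimmed alignments (32 nt or shorter) of at least 6 different lengths ended, and a left edge a base at which at least 6 lengths began. A right edge and the following left edge formed a pair when each was the other's nearest and 50 to 2000 nt lay between them. The 241 pairs were chosen by depth: the mean number of alignments over a gap base was at least 20% of that in the 30 nt flank on one side (49 pairs) or on both (192 pairs). The other 1413 pairs, with less depth in the gap, are called candidate introns here. Gap depth, flank depth and edge lengths therefore chose the members, and their values are given as descriptions.

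Both samples were cultured cells of strain 2137 (CC-1021), and made up 1 group of 2 replicates. Agar plates with Hutner's trace elements supplied the cells. They were diluted 1 to 100 into liquid Tris-acetate-phosphate medium with a revised trace element recipe and grown at 23 °C, lit without a dark phase at a photon flux between 50 and 90 µmol per square metre each second. The second sample carries the strain tag 2138, against its title, and the title was followed. RNA was poly-A selected and fragmented at random, and single reads of 35 nt were taken. Replicate 1 had 5380216 uniquely aligned reads and replicate 2 had 5787626. Nothing in the labels says that the replicates came from separate cultures, so a p-value between them measures a spread that may be technical only. The libraries were summed, and values are given per library without a mean or SD.

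An intron is cut out of the primary transcript, and a read that spans the new joint matches the genome only in part. The deposited alignments shortened such reads until they matched, so their cut ends pile up at the last or first base of an exon. In an intron that is always removed the gap between these piles is empty. A retained intron, which is a common form of alternative splicing in land plants, leaves reads that run from the exon into the gap, whereas an exon inside the gap leaves reads that touch neither edge. Reads can also be cut short by sequencing errors or by differences from the reference genome. The tables name no gene, strand or sequence, so members are named by their position on the joined scaffolds of assembly version 3.1, as deposited.

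The gaps fell into different depth profiles, described with a threshold of 20% of the shallower flank. In 132 of the 241 (54.8%) no base of the gap was under that threshold, and these are called continuous. In 83 (34.4%) the bases 11 to 20 nt inside both edges were under it, so that the reads formed stretches apart from the edges. These are called detached. In 20 gaps the depth was low next to one edge only, and in 6 it was low elsewhere in the gap but not at bases 11 to 20. With edges, pairs and profiles called in replicate 1 or replicate 2 alone, 65 and 76 pairs were continuous and 39 and 41 detached.

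**Figure D1:**
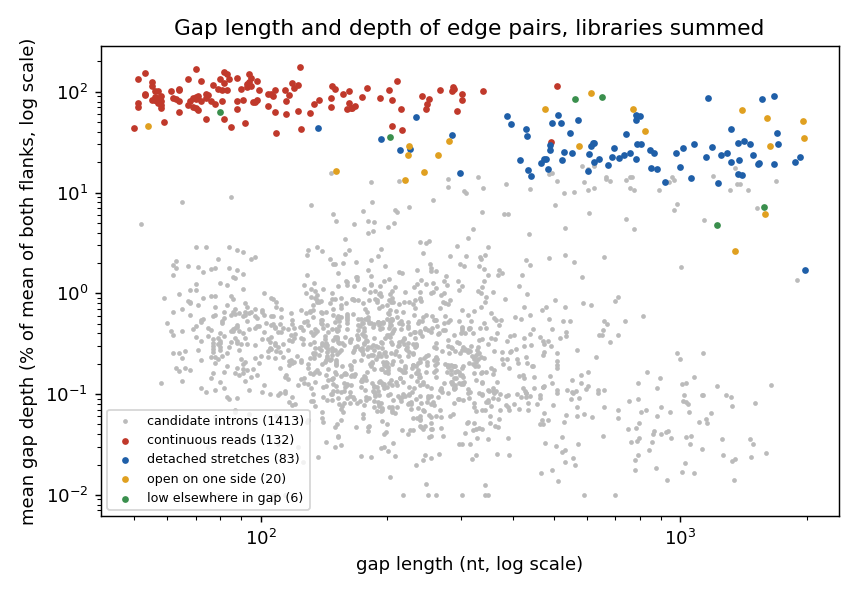
Mean depth in the gap as a percentage of the mean of both flanks (vertical, log scale) against gap length in nt (horizontal, log scale) for all 1654 pairs, both libraries summed. Pairs with a value under 0.01% are drawn at 0.01%. Continuous gaps lie at the upper left with a median of 91.5 nt, detached gaps at the right with a median of 757 nt, and candidate introns between them in length and mostly under 1%.

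The profiles differed in length, and their definitions bear on it. A long gap has more bases that can be under the threshold, and a very short one has little room for a stretch apart from both edges. The median gap of all members was 206 nt, close to the 207 nt of candidate introns, but this median stands between unlike groups. The median continuous gap measured 91.5 nt (quartiles 68.75 and 147 nt), and 90 of 132 were shorter than 120 nt. The median detached gap measured 757 nt (quartiles 503.5 and 1239 nt), and 74 of 83 were 400 nt or longer. Among candidate introns 920 of 1413 lay from 120 nt to under 400 nt. Read by length class, members made up 92 of the 336 pairs of 50 to 119 nt (27.4%), 25 of the 439 of 120 to 199 nt (5.69%), 32 of the 538 of 200 nt to under 400 nt (5.95%), 45 of the 219 of 400 to 799 nt (20.5%) and 47 of the 122 of 800 to 2000 nt (38.5%). The limit was thus reached most often in the shortest and the longest gaps.

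The profiles also lay at different depths. The shallower flank of continuous pairs had a median depth of 784 alignments (interquartile range 455 to 1225), that of detached pairs 21.7 (17.1 to 31.0) and that of candidate introns 82.2 (40.8 to 356). Of the 549 pairs with a shallower flank under 50, 78 were detached and 0 continuous. Of the 159 pairs with both flanks at 1000 or more, 44 (27.7%) were continuous and 0 detached. More reads at a base give more chances for trimmed alignments of 6 lengths to meet there. The part of depth in these counts was not tested beyond the control piles given next.

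As a control, piles were sought with the far end of each trimmed alignment put on the wrong side or at double the length, so that it did not stand where the alignment ended. They gave 926 left and 944 right positions against 5517 left and 5349 right edges, and 85 pairs. Of these pairs 56 reached the depth limit, a number equal to 23.2% of the members, and 29 did not, equal to 2.05% of the candidate introns. There were 30 continuous control pairs (22.7% of the number of continuous members) and 3 detached ones (3.61%). Control pairs that were low next to one edge numbered 20, as many as the members of that profile. Control piles lie away from the reads that form them, so these are shares of counts and not rates of false pairs.

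Reads running across an edge were counted next. An alignment had to hold at least 6 nt on each side of the edge, and its count was set against the trimmed alignments that ended or began at the edge. Full-length reads that ended or began exactly at an edge are in neither count, so all these shares leave them out. The crossing count uses the same reads as the depths and is not independent of them. Of the 482 edges of members, 182 had under 10% of crossing and trimmed reads running across and 244 had 90% or more, with 56 in between. In candidate introns the median was 0% at either edge, and 1353 of 1413 had under 10% at both.

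**Figure D2:**
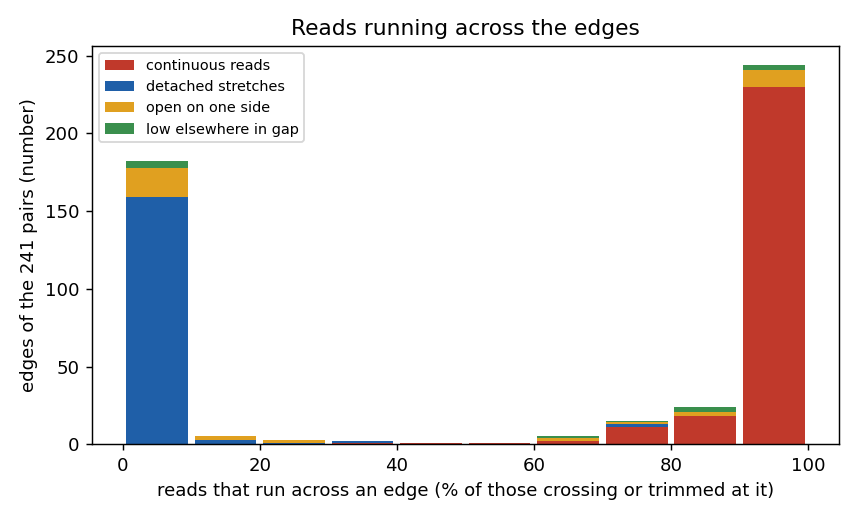
Number of edges of the 241 members (vertical) by the percentage of crossing and trimmed reads that ran across the edge, in steps of 10 points (horizontal), stacked by profile. Detached gaps supply most of the edges under 10%, continuous gaps most of those at 90% or more, and few edges lie between.

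At the edges of continuous gaps the reads that ran across mostly far outnumbered the trimmed ones. Of both kinds together a median of 97.7% ran across the right edge (interquartile range 95.4 to 98.7%) and 97.9% across the left edge (96.0 to 98.6%). Full-length reads that ended or began at these edges, given below, are not in the shares. The trimmed alignments at these edges were few against the depth: a median of 13 at the right edge, 1.36% of the flank, and 12 at the left edge, 1.14%. Candidate introns had medians of 35 at each edge, which were 37.3% and 38.3% of the flank. Piles at continuous edges also stood among other trimmed ends. The median was 1.52 trimmed ends per base in the 30 nt on either side of the right edge, against 0.133 around candidate introns. These medians were not scaled to depth, which was higher in continuous pairs. Across continuous edges depth changed little, from a median of 98.6% of the flank at the last base before the gap to 92.6% at the first gap base. Over the whole gap it had a median of 87.4% of the mean flank.

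Untrimmed reads also ended or began at edge bases, in the largest numbers in continuous pairs. Full-length alignments (35 nt) had no part in calling an edge. At continuous right edges a median of 57 of them ended, against 23.5 per other base within 30 nt, and at left edges a median of 79 began, against 21.8. The right edge stood above its surroundings in 94 of 132 pairs and the left edge in 112. By library the medians at right edges were 25 in replicate 1 and 31 in replicate 2, and at left edges 43 and 42.5. Full-length reads outnumbered the trimmed ones at 97 of 132 right and 100 of 132 left edges. This was so at 1 right and 0 left edges of the 83 detached pairs. In the 1413 candidate introns, whose medians were 3 and 2 full-length reads, it was so at 24 right and 22 left edges. These counts are not independent of depth, whose part in them was not tested. Other bases within 30 nt had medians of 0.533 and 0.45 full-length reads in detached pairs, and 1.83 on either side in candidate introns. The edge stood above its surroundings at 721 right and 707 left edges of candidate introns, and at 40 and 35 of detached pairs. The surroundings reach into the gap, which next to these edges is nearly empty but in continuous pairs is covered. The counts are therefore not on a like background with those of continuous pairs. In the median profile of continuous pairs depth steps up about 1 full read length outside either edge. At the other 35 right and 32 left continuous edges the trimmed reads were as many or more. Among these were the right edges at 84131283 to 84131439, with 105 trimmed and 0 full-length reads, and at 66921792 to 66921881, with 84 and 0, and the left edges at 50078326 to 50078611, with 57 and 0, and at 75206506 to 75206655, with 44 and 3. This count was added after the depth profiles had been seen, and the edges at 66921792 and 50078326 were picked out with their values known.

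At the edges of detached gaps almost no read ran on. In 77 of 83 pairs the share was under 10% at both edges, and in 73 no read crossed either edge. Their trimmed alignments had medians of 13 at each edge, as few in number as at continuous edges, but 47.2% and 46.9% of the flank. The median depth fell from 60.3% of the flank at the last base before the gap to 5.66% at the first gap base and 0% at the fifth. Candidate introns showed the same steps, with 49.8%, 6.67% and 0%. Medians next to the edges were close in detached gaps and candidate introns. The definition of detached gaps asks for low depth a short way inside both edges, and membership asks for depth in the gap. That the reads of detached members lay further inside follows from how these gaps were chosen. The same choice bears on the depth and crossing counts at their edges, so the closeness to candidate introns is a description only.

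**Figure D3:**
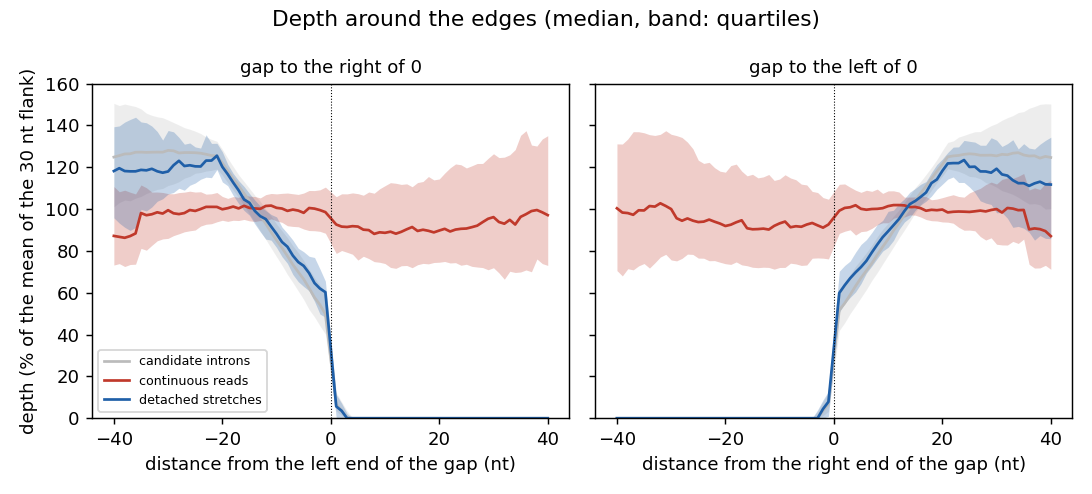
Median depth as a percentage of the 30 nt flank (vertical; bands are quartiles over pairs) by distance in nt from the left end of the gap (left panel) and from the right end (right panel), libraries summed; inside the gap only pairs at least as long as 2 times the distance enter. Detached gaps and candidate introns drop to 0% within 5 nt of the edge, while continuous gaps stay near 90%. The sets were defined by depth in the gap, which bears on these courses.

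The strength of the edges in the library that had not been used to find them gave a further reading. Pairs called in replicate 1 alone were looked up in replicate 2. Of 65 continuous members 50 (76.9%) had at least 3 lengths at both edges there, of 39 detached members 37 (94.9%), and of 798 candidate introns 788 (98.7%). At 6 lengths the counts were 15 (23.1%), 17 (43.6%) and 667 (83.6%). Pairs called in replicate 2 alone were likewise looked up in replicate 1. There 57 of 76 continuous members, 38 of 41 detached members (92.7%) and 835 of 851 candidate introns (98.1%) had 3 lengths. At 6 lengths the counts in this direction were lower in share, 10 (13.2%), 10 (24.4%) and 667 (78.4%). Edges of members had fewer trimmed reads than those of candidate introns, with medians of 12 against 50 and 54 in replicate 2, so the lengths found cannot be compared apart from the number of reads. The depth limit itself held in the other library for 110 of 111 members called in replicate 1 and for 121 of 128 called in replicate 2.

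Inside the detached gaps the reads lay in bounded stretches. Runs of at least 20 nt at or above the threshold that touched neither edge numbered 161 over the 83 gaps, 1 in 42 gaps and 2 or more in 41. Their median length was 122 nt (interquartile range 86 to 162 nt) and their median depth 88.9% of the mean flank. Trimmed alignments of 3 or more lengths began within 10 nt of the first base of 105 stretches and ended within 10 nt of the last base of 105. Both held for 77 (47.8%), in 62 of the 83 gaps. Around the middle of the same stretches beginning piles were found in 3, ending piles in 6 and both in 0 of 161. The 0 allows a share of up to 1.86% (3 of 161) if stretches are independent, which those of the same gap need not be. The middle is no matched control. Stretch ends were placed by the depth of the same reads, which draws beginning and ending piles to them. Both piles were also sought in a single window at the middle, but in separate windows at the ends. No pile inside a gap could reach 6 lengths, since it would then have been an edge. The depth of the stretches is a description, since the gaps were chosen for depth against the flanks.

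The detached member with the most trimmed reads at its weaker edge had a gap of 639 nt at 96639557 to 96640195. Its gap had a mean depth of 18.5 in replicate 1 and 21.2 in replicate 2, where the left flank had 83.6 and 117.3 and the right flank 80.6 and 89.6. Summed, 61 trimmed reads ended at its right edge and 80 began at its left edge, and 1 read ran across each, 1.61% (95% Clopper-Pearson interval 0.0408 to 8.66%) and 1.23% (0.0313 to 6.69%). Both libraries were low next to the edges and high in a single stretch of 118 nt at 96639901 to 96640018, where the summed mean depth was 208, above the mean of both flanks. That stretch had piles of only 1 and 2 lengths at its ends.

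Other detached members had stretches with clearer ends. At 10571613 to 10573026 a gap of 1414 nt held stretches of 232 nt and 387 nt, at 91.0% and 64.3% of the mean flank, each with piles of 5 lengths at its start and its end. Gap depth there was 9.08 in replicate 1 and 9.18 in replicate 2, and 0 reads ran across the edges beside 22 and 24 trimmed reads, which allows up to 15.4% and 14.2% (95% Clopper-Pearson). At 56634696 to 56635183 a gap of 488 nt held 1 stretch of 163 nt at 87.3%, with 4 and 5 lengths at its ends. Its right edge had 4 trimmed reads in replicate 1 and 26 in replicate 2, so this edge rests mainly on 1 library. At 6119102 to 6119885 a gap of 784 nt held a stretch of 396 nt at 115% of the mean flank, with 3 and 4 lengths. In these 3 gaps at most 1 read ran across an edge, and the reads lay further in.

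Some detached members departed from this picture. The longest of all members, 1979 nt at 41633918 to 41635896, faced a flank of 1370 on its left and 18.6 on its right. Its gap depth of 5.41 and 6.49 in replicates 1 and 2 was 0.869% of the left flank and 63.9% of the right, so only the shallow flank made it a member. It held 7 stretches, and 30 reads ran across its right edge beside 10 trimmed reads (95% Clopper-Pearson interval 58.8 to 87.3%) against 0% at its left (up to 24.7%). The interval at the right edge leaves out 209 full-length reads that ended there, against 32.7 per other base within 30 nt. Most reads that stopped at this edge are thus not in the share. The detached member with the next deepest flanks, 137 nt at 87080645 to 87080781, had depths of 45.2 and 54.3 in the gap. No read ran across its right edge, where 93 trimmed reads ended, but 42 ran across its left edge, or 70.0% (56.8 to 81.2%).

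**Figure D4:**
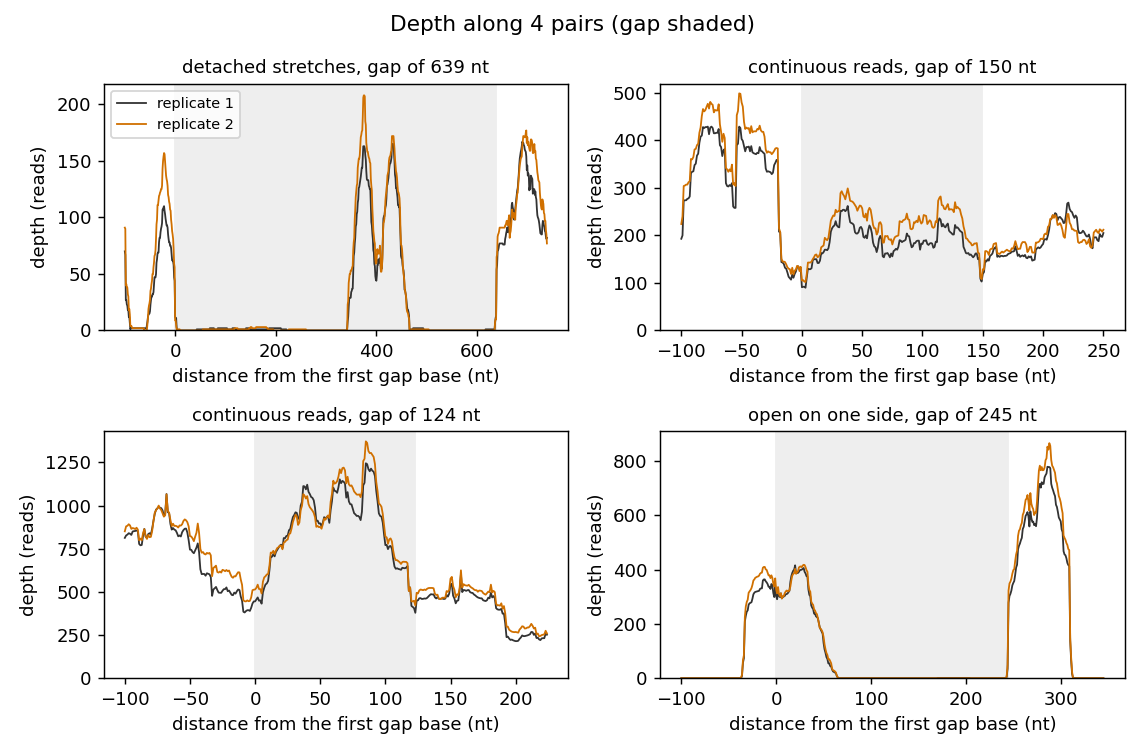
Depth in reads (vertical) along 4 members by distance in nt from the first gap base (horizontal), replicate 1 in black and replicate 2 in orange, gap shaded. The 639 nt gap holds 1 isolated stretch; the 150 nt and 124 nt gaps are filled throughout, the first after a fall in depth that begins before the gap; in the 245 nt gap reads run in from the left and stop, and depth returns only at its right end. The libraries follow each other in all 4.

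Among continuous members the pair at 75206506 to 75206655, with a gap of 150 nt, had the most trimmed reads at its weaker edge. Gap depth was 186 in replicate 1 and 219 in replicate 2, beside left flanks of 210.3 and 228 and right flanks of 157.5 and 167.5, so the gap was about as deep as its flanks in either library. At the right edge 54 trimmed reads ended (29 and 25 by library) and 119 reads ran across, 68.8% (95% Clopper-Pearson interval 61.3 to 75.6%). At the left edge 44 began (20 and 24) and 120 ran across, 73.2% (65.7 to 79.8%). Reads of both kinds were present in numbers at both of its edges. Shares of 10 to 90% at both edges occurred in 8 of 241 members and 4 of 132 continuous ones. The other 3 continuous ones, singled out after their values were seen, lay at 36116141 to 36116260, 36248542 to 36248880 and 81662359 to 81662652, with 77.1 to 89.4% of reads running across.

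The other continuous members with many trimmed reads were of more than one kind. At 84131283 to 84131439 (157 nt) 105 trimmed reads ended at the right edge and 28 began at the left, with 81.2% (77.7 to 84.3%) and 97.8% (96.8 to 98.5%) running across. At 12255477 to 12255538 (62 nt) the numbers were 26 and 193, with 97.1% (95.7 to 98.1%) and 73.2% (69.8 to 76.4%). The remaining 3 were more even. The 192 nt gap at 61396586 to 61396777 had 31 and 24, with 76.0% (67.7 to 83.1%) and 93.8% (91.0 to 96.0%). In the 79 nt gap at 41323206 to 41323284, with 32 and 22 trimmed reads, and the 95 nt gap at 80203481 to 80203575, with 35 and 25, 95.5% or more ran across each edge. Over continuous members the weaker edge had a median of 58.0% of the trimmed reads of the stronger one, against 65.2% in candidate introns.

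In 20 members the gap was as deep as its deeper flank or deeper, and all 20 were continuous. The highest was the 124 nt gap at 29527493 to 29527616, with a depth of 864 in replicate 1 and 897 in replicate 2, where the left flank had 471 and 564 and the right flank 473 and 505. Summed, the gap stood at 170.1% of its deeper flank. The next were 70 nt at 56107990 to 56108059 (169.9%), 94 nt at 96884444 to 96884537 (148%), 82 nt at 1848085 to 1848166 (138%) and 67 nt at 38032541 to 38032607 (128%). Between 93.3% and 99.6% of reads ran across each of their edges. In these gaps the depth was higher between the edges than beside them in both libraries.

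The deepest continuous members and the shortest members were of the same kind. At 35742921 to 35743016 (96 nt) the gap had 1992 and 2142 in replicates 1 and 2, with 10 trimmed reads at each edge against 5502 and 1712 running across. At 16018194 to 16018263 (70 nt) the gap had 1445 and 1494, with 16 and 7 trimmed reads against 2965 and 1507. Full-length reads, which the shares leave out, also ended or began at these edges. At the first pair they numbered 558 on the right and 168 on the left, against 223.9 and 66.2 per other base. At the second they numbered 459 and 626, against 117.2 and 106.5 per other base. The shortest gaps, 50 nt at 29526733 to 29526782, 51 nt at 17960827 to 17960877 and 51 nt at 35742764 to 35742814, had 96.6 to 99.6% of reads running across. Of the 15 windows of 1 kb with the most reads, 7 were touched by members, 12 members in all. No such count is given for candidate introns, so it cannot be read as particular to members.

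The 20 members with low depth next to one edge mixed both kinds of edge. In 13 of them under 50% of reads ran across one edge and 50% or more across the other. At 94810449 to 94810693, a gap of 245 nt, 497 trimmed reads began at the left edge and 0 reads ran across it (up to 0.739%), whereas 269 ran across the right edge, 94.7% (91.4 to 97.0%), beside 15 trimmed reads. Gap depth was 68.0 in replicate 1 and 70.2 in replicate 2. This profile was not general: the 2 with the deepest flanks, 54 nt at 106389759 to 106389812 and 151 nt at 68044667 to 68044817, had 96.1% or more running across each edge. The next longest members after the 1979 nt gap were also of this profile, 1970 nt at 23369753 to 23371722 and 1958 nt at 106254793 to 106256750, with 3 and 10 stretches inside. Of the 6 gaps low elsewhere, 4 had 50% or more of reads running across each edge, among them the 2 with the deepest flanks at 21098378 to 21098938 and 68044847 to 68046425. In the other 2, at 35456677 to 35456879 and 63482498 to 63482577, no read ran across either edge.

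Just inside the limit of 20% stood the pairs at 94810449 to 94810693 (20.05% of the shallower flank, low next to one edge only), 52393192 to 52394043 (20.08%) and 95553117 to 95554655 (20.14%). Just outside stood those at 31537318 to 31537647 (19.96%), 12669943 to 12670437 (19.94%) and 53308457 to 53309805 (19.93%). Other than the first, all 5 had low depth next to both edges and 0 reads across either. In all, 56 of the 1413 candidate introns also held a stretch apart from the edges, 75 stretches with a median of 76 nt, and 38 of these had piles of 3 or more lengths at both ends.

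Members lay near candidate introns and near each other to different degrees. A candidate intron was within 2000 nt of 117 of 132 continuous members (88.6%), of 37 of 83 detached members (44.6%) and of 1225 of 1413 candidate introns themselves (86.7%). Another member was within 2000 nt of 71 continuous (53.8%) and 8 detached members (9.64%). The same held for 84 of all 241 members (34.9%) and for 404 of 1413 candidate introns (28.6%). In this way 84 members formed 37 groups, 28 of 2 members and 9 of 3 or more, while 157 stood alone. The largest group held 4 members within 1301 nt at 96883771 to 96885071, with gap depths of 28.7 to 149.8% of the mean flank and no candidate intron between them.

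Between the libraries no member was called different by the test used. Reads that started in the gap were set against those that started in the flanks with a two-sided Fisher's exact test per pair. Of 985 pairs with at least 10 gap reads, 0 (0%) passed a Benjamini-Hochberg adjusted p of 0.05, among them 0 of 241 members. At an unadjusted p under 0.05 there were 45 pairs (4.57%), of which 14 were members (5.81%) and 31 candidate introns (4.17%). The member with the lowest p, picked out with its values known, was the continuous pair at 74103617 to 74103741, with 1358 gap and 1386 flank reads in replicate 1 and 1533 and 1345 in replicate 2 (exact p = 0.00467, adjusted p = 0.737). The ratio of replicate 2 to replicate 1 in gap depth relative to the mean flank had a median of 1.00 and ranged from 0.486 to 2.39, and both extremes were detached pairs. Pairs with such ratios were not called, so the lack of calls does not show that the libraries were alike. Across the 241 members the log2 values had a Pearson r of 0.971, over pairs that share libraries and are no replicates.

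**Figure D5:**
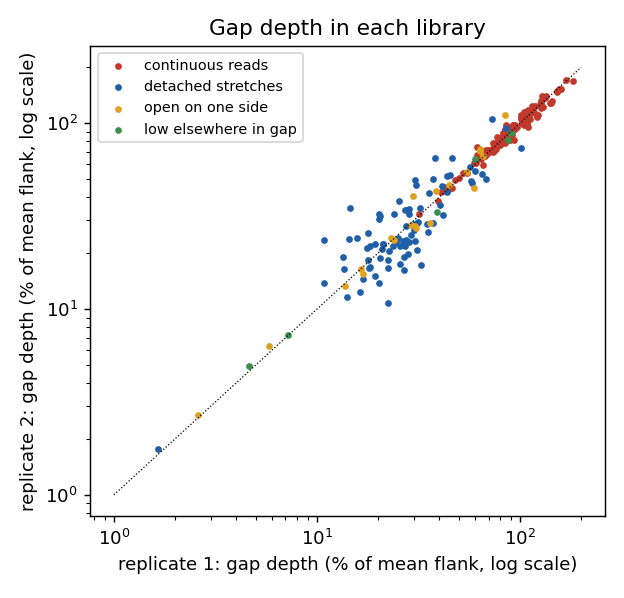
Gap depth as a percentage of the mean flank in replicate 2 (vertical, log scale) against replicate 1 (horizontal, log scale) for the 241 members, with the line of equality dotted. Continuous gaps lie close to the line, and detached gaps, with a median of 187 reads in the gap against 2765, scatter around it.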

How the data were processed

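Per the authors' deposited readme, SOAP (no version is named) placed the reads on the unmasked version 3.1 assembly, its 1266 scaffolds joined end to end. Up to 2 mismatches, but no indels, were allowed in a first round. Unplaced reads were then shortened, to 21 nt at the least, and kept where the rest matched without a mismatch. The deposited values are raw counts of uniquely aligned reads per start position and alignment length, and these positions and lengths are the other values used. Repeats and near-identical copies are missing, so an uncovered base need not be silent. The origin of positions (0 or 1) is not given. No genome of this build was used here, hence no sequences or gene names.

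The counts of both libraries were summed, and edges, pairs, depths, crossing and full-length reads computed in Python 3.11.15 (numpy 2.4.6, pandas 2.3.3, scipy 1.17.1, with Fisher's exact test and Clopper-Pearson intervals). Intervals and limits cover counting error only, since reads are not independent molecules. Recovery of planted edges and library differences was tested on simulated data. The members, profiles and measures were chosen with earlier results of these data known. Named pairs are the 10 with the most trimmed reads at the weaker edge, the 5 highest against the deeper flank, 3 on either side of the limit, the 3 longest and 3 shortest, and the 2 with the deepest flanks per profile. Because there is 1 group, no comparison of conditions was made, and the files hold no gene, so the planned count test per pair is the only test across pairs.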

Additional observations from a re-analysis of the deposited data

How the results depend on the processing

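The number of members, 241, stayed within 1.5 times under a depth limit of 10% or 50%, the limit on both sides, 60 nt flanks, full-length alignments only, gaps without their outer 10 bases, each position once and 5 lengths at an edge. It fell to 114 with 8 lengths, and to 111 to 128 with 1 library, which holds fewer reads. The median gap of 206 nt became 293 nt (5 lengths), 291.5 nt (8 lengths), 280 nt (10% limit), 108 nt (50% limit) and 186.5 to 202 nt with 1 library. The median gap depth of 67.2% of the mean flank became 78.7% (full-length only), 64.8% (without outer bases), 71.9% (each position once) and 65.9 to 67.6% with 1 library. The median share of reads across an edge, 91.1%, became 93.2% with 3 nt and 86.2% with 10 nt on each side, and 90.4 to 92.1% with 1 library. Settings for the profile counts were chosen after seeing the data. Continuous members, 132, became 58 with 8 lengths and 65 to 76 with 1 library. Detached members, 83, became 134 (5 lengths), 48 (8 lengths), 126 (10% limit), 21 (50% limit) and 39 to 41 with 1 library. The causes of these moves, the number of reads among them, were not tested. The library test gave 0 pairs under all 4 alternatives, with 2 to 52 at an unadjusted p under 0.05. Leaving out 1 of 2 libraries gives the other's value, so single-library values of named pairs do not measure stability. Detached gaps rested on a median of 187 reads. With 1 group, no paired analysis could be made.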
